A study of Mus musculus with 22 samples.

Results

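The AMPA and NMDA receptor subunits were followed in the hippocampus of TgproNGF#3 mice. The members are the AMPA receptor genes Gria1, Gria2, Gria3 and Gria4 and the NMDA receptor genes Grin1, Grin2a, Grin2b, Grin2c, Grin2d and Grin3a, 10 of the 21154 genes with a named probe. A probe was taken as a member when the RefSeq transcript given for it in the scanner files belongs to 1 of these genes. This selected 17 probes, 7 for AMPA and 10 for NMDA receptor subunits, of 55681 probes on the array. The rule uses no measured level. Gria1, Grin2c and Grin2d have 1 probe each and the other 7 genes have 2.

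TgproNGF#3 mice carry a transgene whose cDNA has a mutated furin cleavage site, so that its product resists cleavage, followed by an IRES and EGFP. The Thy1.2 promoter, which is active in neurons, drives this cDNA, and the mice come from 1 founder line. Wild-type (WT) mice served as controls. Total RNA was taken from the right hippocampus of mice of both genotypes, all of the C57Bl/6xDBA/2 background and with no treatment before dissection, and hybridized with 1 dye to Agilent mouse oligonucleotide arrays. At 1 month and again at 3 months 4 TgproNGF#3 and 4 WT mice were used, all labelled male. At 12 months 3 of each genotype were used, all labelled female, which makes 22 arrays. One slide carried the arrays of one age, and the effects of age, of sex and of the slide cannot be told apart. At 1 month the genotypes lay in different columns of the slide. At 12 months all TgproNGF#3 arrays lay in row 2 and most WT arrays in row 1. Genotype and position on the slide cannot be fully told apart at these ages.

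AMPA and NMDA receptors are the ion channels that carry most fast excitatory transmission at hippocampal synapses. AMPA receptors are tetramers of GluA1 to GluA4 (Gria1 to Gria4), and edited GluA2 makes them nearly impermeable to calcium. NMDA receptors need GluN1 (Grin1), which binds glycine or D-serine, together with GluN2 subunits (Grin2a to Grin2d), which bind glutamate, or GluN3 subunits, and they open only when the membrane is depolarized while agonists are bound. During the first postnatal weeks GluN2A joins GluN2B as a main GluN2 subunit of the forebrain, while GluN3A declines.

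The array measures each subunit by short oligonucleotides. Levels are given as log2 of the background-subtracted signal minus the 75th percentile of the array, so that 0 is the level of a bright probe and higher values are brighter. Levels of different probes are not comparable with each other, because binding differs between oligonucleotides. All 17 member probes were well above background on all 22 arrays and no spot was saturated, so each value below is measured and none is a bound. Between 57.6% and 80.3% of the spots of an array were well above background, and the number of arrays limits the precision. All 56 marker genes of 10 cell types, among them 6 of excitatory hippocampal neurons such as Prox1 and Neurod6, were detected on every array. In such tissue RNA, fewer cells of a type and less RNA per cell cannot be told apart.

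Start regions are shown for Gria2, which has a called probe at 3 months, and for Grin2c, which holds most of the motif matches. RefSeq promoters of build GRCm38.p6, each 300 bases long from 250 bases before to 50 bases after the start, were listed for 5 of the 10 genes, which are Gria2, Gria4, Grin1, Grin2c and Grin2d. Their G and C content lay between 56% (Grin2d) and 70% (Grin2c), with 65.7% for Gria2. The GC box GGGCGG was searched on both strands, as were the core of the cyclic AMP response element, TGACGT, and the Egr1 site GCGGGGGCG, which can overlap a GC box. The GC box was present in 2 of the 5 promoters (Grin1 and Grin2c) against 35.7% of all 32851 promoters, and the Egr1 site in 1 (Grin1, 5 bases after the start and overlapping its GC box) against 2.91%. The response element core was in 0 of the 5, against 7.51% of all promoters. The Gria2 window is the last 30 bases before its start, chr3:80802836-80802865 on the minus strand. The Grin2c window is chr11:115267269-115267297, also on the minus strand, and its capitals mark 3 GC boxes, the last 2 of which share a base.
Gria2: gggtgggtgcgcgagctcgccgcctgcctc
Grin2c: gctgGGGCGGgccgGGGCGGGGCGGaggc

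At 1 month no subunit was called in TgproNGF#3 against WT mice. A probe was called, with the thresholds of the study, when limma gave an unadjusted p below 0.05 and the Log2 fold change (Log2 FC) was above 1 or below -1. Of the 17 member probes 0 were called and 0 had an unadjusted p below 0.05, against 0.57% and 3.47% of the 40536 probes tested. Log2 FC of the members ranged from -0.57 (Grin3a, probe A_55_P1980471, limma adjusted p = 0.9999) to 0.63 (Grin2d), with 9 above and 8 below 0. Their median of 0.06 lay near the median of all probes, 0.07. Same-numbered TgproNGF#3 and WT arrays of this age deviated together, and with the number as a block 0 were called and 2 of 17 had an unadjusted p below 0.05, against 5.64% of 38560 probes. These were Grin2b A_52_P1044964 (-0.42, limma adjusted p = 0.882) and Grin3a A_55_P1980471 (limma adjusted p = 0.883).

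At 3 months single probes of Grin2a, Grin2b and Gria2 were lower in TgproNGF#3 mice, by a Log2 FC of -1.88, -1.64 and -1.38. These 3 probes, 17.6% of the members, were called, all of them lower, against 6.76% of the 33593 probes tested, or 6.12% when calls to lower levels alone are counted. Adjusted over all probes, Grin2a and Grin2b had an adjusted p below 0.05 and Gria2 did not (2 of 17 members against 8.43% of all probes). No member was called higher, against 0.643% of all probes.

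Grin2a encodes GluN2A, the GluN2 subunit that gives NMDA receptors fast closing kinetics. Its probe A_55_P1974035 read -5.67, -4.49, -4.34 and -6.14 in the 4 TgproNGF#3 mice of 3 months (replicates 1 to 4). In WT mice it read -3.03, -3.46, -3.30 and -3.33. All 4 TgproNGF#3 arrays were below all WT arrays, and they were more spread out (SD 0.89) than the WT arrays (SD 0.18). The Log2 FC was -1.88 (SE 0.38, 95% confidence interval -2.73 to -1.03, n = 4 and 4, limma adjusted p = 0.0183), a 3.68-fold lower level. The TgproNGF#3 mean of -5.16 was dim, and with normexp background correction the Log2 FC was -1.32 (limma adjusted p = 0.0186). The second Grin2a probe, A_55_P1980481, read -0.50, 0.02, 0.30 and -1.28 in TgproNGF#3 and 1.17, 0.01, 0.51 and 0.55 in WT. These groups overlapped, and its Log2 FC of -0.93 (SE 0.35, limma adjusted p = 0.132) was not called.

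Grin2b encodes GluN2B, which gives NMDA receptors slower kinetics and binds CaMKII. Probe A_52_P1044964 read -0.67, -0.41, -0.31 and -1.81 in TgproNGF#3 mice and 1.36, 0.33, 0.72 and 0.94 in WT mice. All 4 TgproNGF#3 arrays were below 0 and all 4 WT arrays above it. The Log2 FC was -1.64 (SE 0.34, 95% confidence interval -2.41 to -0.87, limma adjusted p = 0.0217), a 3.12-fold lower level. Its other probe, A_51_P320357, read -0.34, 0.96, 0.83 and -0.87 in TgproNGF#3 and 0.95, 1.00, 0.66 and 0.84 in WT. Here TgproNGF#3 replicates 2 and 3 lay within the WT range and replicates 1 and 4 below it, and the Log2 FC was -0.72 (SE 0.38, limma adjusted p = 0.255).

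Gria2 encodes GluA2. Probe A_65_P00930 read -1.15, 0.10, -0.43 and -0.98 in TgproNGF#3 mice and 0.70, 0.15, 1.72 and 0.46 in WT mice. The groups did not overlap, but TgproNGF#3 replicate 2 came close to WT replicate 2. The Log2 FC was -1.38 (SE 0.37, 95% confidence interval -2.21 to -0.54, limma adjusted p = 0.0517), a 2.59-fold lower level. The second probe, A_55_P2031327, is assigned to another RefSeq transcript of Gria2. It read -1.60, -1.42, -1.54 and -1.48 against -1.08, -1.19, -1.22 and -1.03, again with the groups apart, and its Log2 FC was smaller, -0.38 (SE 0.12, limma adjusted p = 0.0829).

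**Figure D1:**
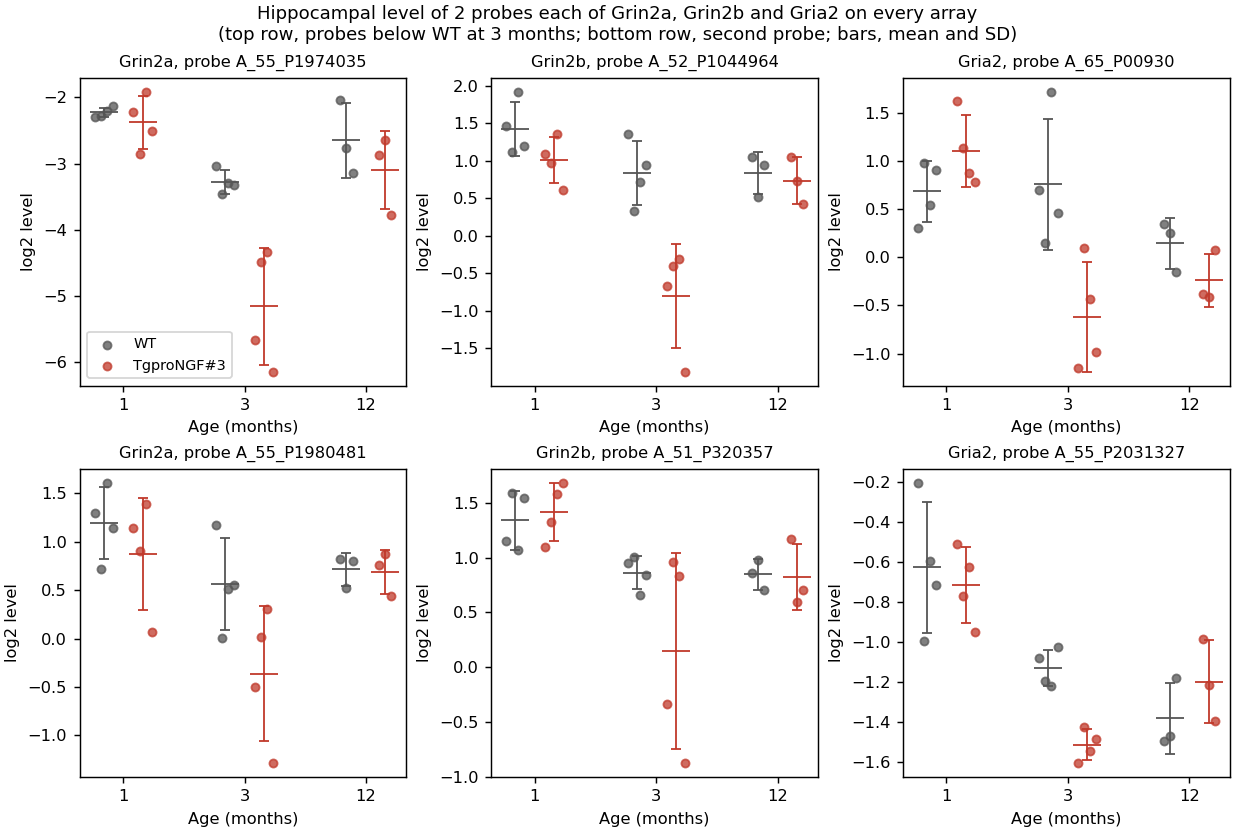
Log2 level (signal minus the 75th percentile of the array) of both probes of Grin2a, Grin2b and Gria2 against age in months, 1 point per array, grey for WT and red for TgproNGF#3, with mean and SD bars. At 3 months all red points of the top row lie below all grey points, and in the bottom row the Grin2a and Grin2b probes overlap between genotypes.

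For each of the 3 genes, both probes read lower on average in TgproNGF#3 mice of 3 months, and 1 of the 2 was called. By mean over all arrays, the called probe was the dimmer of the 2 for Grin2a and Grin2b and the brighter for Gria2. The 2 Grin2a probes carry the same RefSeq transcript, as do the 2 Grin2b probes. Within an array, the called Grin2a probe minus the second one gave -5.17 to -4.51 in TgproNGF#3 mice and -4.20 to -3.47 in WT mice, so the 2 probes did not move by the same amount. In the case of Grin2b, the second probe minus the called one gave 0.33 to 1.37 in TgproNGF#3 and -0.41 to 0.67 in WT, which overlap.

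With 4 against 4 arrays, groups that do not overlap give the smallest two-sided p an exact permutation test can reach, 0.0286. Groups were apart at 3 months for 5 of the 17 probes (29.4%), all lower, against 20.3% of all probes and 14.6% for lower levels alone. They were the 3 called probes, the second Gria2 probe and the Grin2c probe. Grin2c encodes GluN2C, found mainly in cerebellar granule cells, interneurons and glia. It read 1.05, 0.86, 0.24 and 1.08 in TgproNGF#3 and 1.26, 1.11, 1.66 and 1.16 in WT (Log2 FC -0.49, SE 0.22, limma adjusted p = 0.184).

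The subunits that complete these receptors were not called at 3 months. Grin1, without which no NMDA receptor forms, read 1.41, 1.95, 1.56 and 1.15 in TgproNGF#3 and 1.56, 1.57, 0.95 and 1.62 in WT on its brighter probe A_65_P18935. The groups overlapped, with a Log2 FC of 0.10 (95% confidence interval -0.39 to 0.58, limma adjusted p = 0.809). The dimmer Grin1 probe gave -0.36 (limma adjusted p = 0.261). Gria1, the AMPA subunit that moves to synapses during potentiation, read 2.64, 2.24, 2.41 and 2.69 against 2.93, 2.67, 2.69 and 2.76, with a Log2 FC of -0.27 (95% confidence interval -0.60 to 0.06, limma adjusted p = 0.2745).

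Gria3, which forms receptors with GluA2 in pyramidal cells, read 0.93, 1.06, 1.05 and 0.03 against 1.04, 1.12, 0.97 and 0.99 on its brighter probe A_52_P68221 (Log2 FC -0.27, limma adjusted p = 0.484), and its dimmer probe A_52_P179309 gave -0.15 (SE 0.42, limma adjusted p = 0.848). On the brighter probe TgproNGF#3 replicate 4 was the low array, and the other arrays lay close together. Gria4, more prominent in interneurons, read 0.46, 0.27, -0.21 and 0.03 against -0.25, -0.13, 0.34 and -0.06 on probe A_55_P1987725 (Log2 FC 0.16, limma adjusted p = 0.618). Its other probe, A_52_P349182, gave 0.33 (SE 0.21, limma adjusted p = 0.338). Grin2d, which encodes the interneuron subunit GluN2D, was dim, at -4.85, -4.71, -4.34 and -5.70 against -5.42, -4.72, -5.21 and -5.55 (Log2 FC 0.32, limma adjusted p = 0.507).

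Grin3a encodes GluN3A, which lowers the calcium permeability of NMDA receptors and is best known from young neurons. Its brighter probe A_52_P531731 read -0.82, -0.65, -0.74 and -1.25 in TgproNGF#3 and -1.21, -1.06, -1.41 and -1.36 in WT. TgproNGF#3 replicates 1 to 3 were above all WT arrays. The Log2 FC was 0.39 (SE 0.17, limma adjusted p = 0.163), with an unadjusted p of 0.0403. The other Grin3a probe, A_55_P1980471, gave 0.49 (SE 0.51) over TgproNGF#3 arrays at -3.69, -2.64, -2.84 and -5.36 against WT arrays at -3.81, -4.24, -4.34 and -4.11. Without TgproNGF#3 replicate 4 that probe was called higher, with a Log2 FC of 1.07 (limma adjusted p = 0.0386).

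Over all members at 3 months, 11 probes were lower and 6 higher, with a median Log2 FC of -0.27 against -0.12 for all probes tested, of which 62.7% were lower. At an unadjusted p below 0.05, 5 members were lower and 1 higher, 35.3% of the 17 against 27.2% of all probes, of which 19.7% were lower and 7.48% higher. The lower side held both probes of Grin2a, both of Gria2 and 1 of Grin2b, and the higher side 1 probe of Grin3a.

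**Figure D2:**
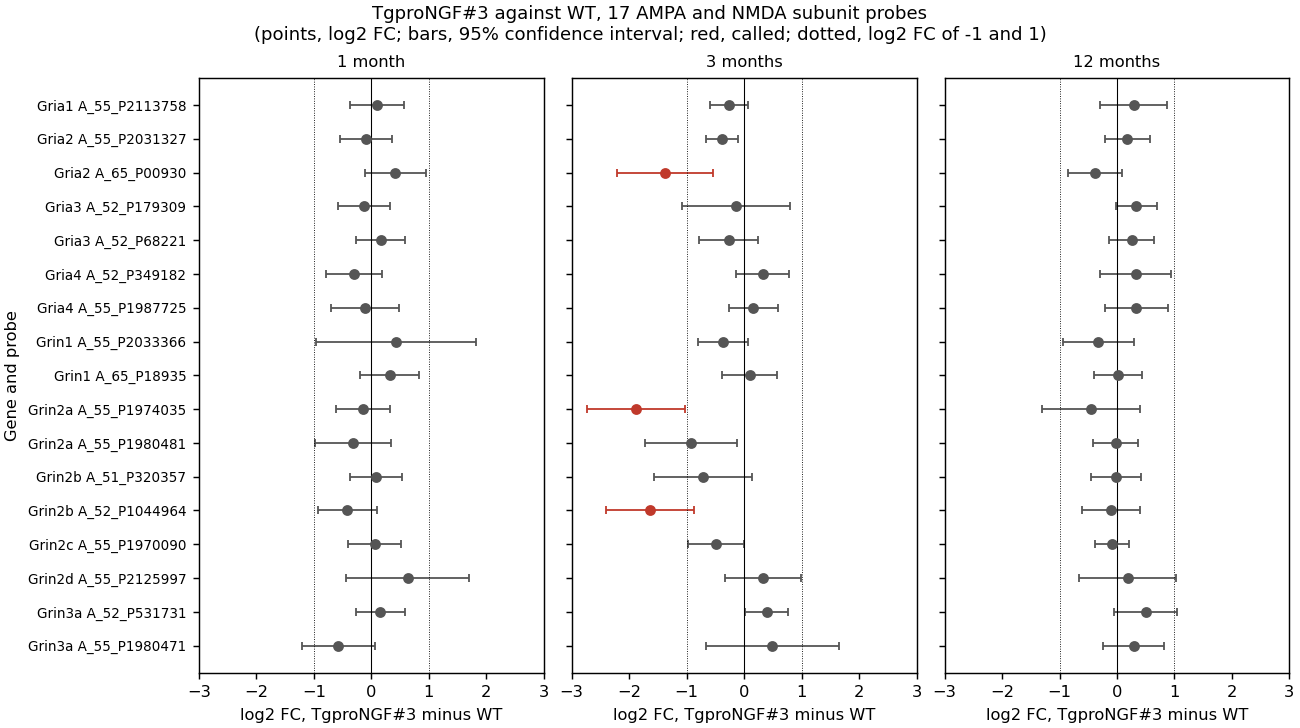
Log2 FC of TgproNGF#3 against WT (horizontal axis, with 95% confidence intervals) for the 17 subunit probes at 1, 3 and 12 months, red where called. The 3 red points stand at 3 months, at -1.88 for Grin2a, -1.64 for Grin2b and -1.38 for Gria2, and no point is red at 1 or 12 months.

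TgproNGF#3 replicate 4 of 3 months had the smallest share of spots well above background on any array (57.6%, against 61.9% to 64.7% on the other TgproNGF#3 arrays of that age) and the lowest value of its group for 12 of the 17 member probes. Without it, the 3 called probes remained called, with Log2 FC of -1.55 (Grin2a, limma adjusted p = 0.01885), -1.30 (Grin2b, limma adjusted p = 0.0139) and -1.25 (Gria2, limma adjusted p = 0.0856). Leaving out any other array of that age also kept these 3 probes called. The adjusted p then ranged up to 0.0567 for Grin2a and 0.0701 for Grin2b, above 0.05 without TgproNGF#3 replicate 1 (0.0561 and 0.0542) and without WT replicates 1 (0.0567 and 0.063) and 4 (0.0563 and 0.0701), and for Grin2b also without WT replicate 3 (0.0508).

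The mean log2 level of 6 neuron markers lay between 3.72 and 4.00 in TgproNGF#3 and between 3.89 and 4.38 in WT mice of 3 months, with a median Log2 FC of -0.22 and 1 of 6 lower at an unadjusted p below 0.05. Over 6 excitatory neuron markers the median was 0.01, with 0 at that threshold, and over 6 markers of GABAergic interneurons 0.27, with 2 higher. Of 6 oligodendrocyte markers 3 were higher and 1 lower (median 0.33), and of 6 astrocyte markers 2 were lower (median -0.19). In the 10 lists 0 markers were called at this age. Markers of the choroid plexus, a tissue that borders the hippocampus, had Log2 FC between -1.31 and -0.77 over 5 genes, with 0 at an unadjusted p below 0.05. Their mean level spread from -1.95 to 2.78 over the TgproNGF#3 arrays and from 1.78 to 2.61 over the WT arrays. The part of neuron number, of other tissue or of array quality in the subunit differences was not tested.

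At 12 months no subunit was called in TgproNGF#3 mice (0 of 17 members, against 1.3% of 34064 probes), and 0 had an unadjusted p below 0.05, against 9.05% of all probes. Without WT replicate 3 of 12 months 6 of 17 did, against 17.4% of all probes in that fit. Log2 FC was above 0 for 10 probes and below 0 for 7, with a median Log2 FC of 0.18 against 0.01 for all probes. With the median of each array as the reference 14 of the 17 were higher, so the direction of the smaller values depends on the scaling. The Grin2a probe that was low at 3 months read -2.87, -2.65 and -3.77 in TgproNGF#3 and -2.03, -2.77 and -3.14 in WT (Log2 FC -0.45, 95% confidence interval -1.31 to 0.41, limma adjusted p = 0.6663). The Grin2b probe read 1.05, 0.73 and 0.43 against 1.06, 0.52 and 0.95 (Log2 FC -0.11, 95% confidence interval -0.61 to 0.39, limma adjusted p = 0.8595). For Gria2, A_65_P00930 read -0.38, -0.41 and 0.08 against 0.35, 0.25 and -0.15 (Log2 FC -0.39, 95% confidence interval -0.86 to 0.09, limma adjusted p = 0.571). In each of these the genotypes overlapped. At this age the 6 markers of GABAergic interneurons had a median Log2 FC of 0.53 (3 of 6 higher at an unadjusted p below 0.05) and the 6 of the leptomeninges -0.62 (2 called lower). Over 5 choroid plexus markers the median was -1.13, with 0 at an unadjusted p below 0.05. Neuron markers had a median of 0.24 (1 of 6 higher) and astrocyte markers 0.05 (1 of 6 lower). The part of these cells and tissues in the subunit values was not tested.

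The same 3 probes overlapped between genotypes at 1 month too. Grin2a read -2.23, -2.86, -1.92 and -2.51 in TgproNGF#3 and -2.29, -2.27, -2.21 and -2.13 in WT mice of 1 month (Log2 FC -0.15, SE 0.21, limma adjusted p = 0.9999). Grin2b read 1.10, 0.97, 1.36 and 0.61 against 1.47, 1.12, 1.92 and 1.20, and 3 of the 4 TgproNGF#3 arrays lay below the WT arrays. Within same-numbered arrays, which the labels do not give as pairs, this Grin2b probe was lower in TgproNGF#3 in 4 of 4. The differences were -0.37, -0.15, -0.56 and -0.59, and 4 pairs cannot go below an exact p of 0.125. In all, 2 of the 17 probes were lower in every pair (Grin2b and Gria4 A_52_P349182) and 2 higher (Grin2d and Grin3a A_52_P531731), against 3.42% lower and 8.24% higher of the 36103 probes measured on all 8 arrays. Gria2 read 1.62, 1.14, 0.88 and 0.78 against 0.30, 0.99, 0.55 and 0.91, higher on average in TgproNGF#3 by 0.42 (limma adjusted p = 0.9999).

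Among the members, groups were apart at 12 months for Gria3 alone (1 of 17 probes, 5.88%, against 15.5% of all probes), on its dimmer probe A_52_P179309. It read -0.73, -0.66 and -0.72 in TgproNGF#3 and -1.15, -1.17 and -0.78 in WT (Log2 FC 0.33, SE 0.15, limma adjusted p = 0.552). With 3 against 3 arrays the exact permutation test cannot go below 0.1. Grin3a was again higher on average, at -0.55, -0.64 and -0.22 against -1.38, -1.01 and -0.53 on A_52_P531731 (Log2 FC 0.50, SE 0.24, limma adjusted p = 0.555).

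Whether the genotype difference itself changed with age was tested in 1 fit over both ages. No member had an adjusted p below 0.05 for the difference between 3 months and 1 month (0 of 17, against 1.75% of 33548 probes, and 3 of 17 at an unadjusted p below 0.05, against 13.1% of all). The largest changes of the Log2 FC were -1.80 for Gria2 (SE 0.46, limma adjusted p = 0.058), -1.73 for Grin2a (SE 0.45, limma adjusted p = 0.0638) and -1.22 for Grin2b (SE 0.43, limma adjusted p = 0.201), all on the called probes. The count rose to 2, Gria2 and Grin2a, without TgproNGF#3 replicate 2 of 3 months, where 2.15% of all probes passed. It was 1 (Grin2a) without TgproNGF#3 replicate 2 of 1 month or replicate 3 of 3 months, and 1 (Gria2) without WT replicate 2 of 3 months. From 3 to 12 months the change was 1.53 for Grin2b (SE 0.47, limma adjusted p = 0.0841) and 1.43 for Grin2a (SE 0.58, limma adjusted p = 0.191), and 0 of 17 members had an adjusted p below 0.05, against 4.01% of 32427 probes. At an unadjusted p below 0.05 there were 3 of 17, against 20% of all. With the thresholds used for genotype, 3 of 17 would be called in the first test (5.74% of all) and 2 in the second (8.33% of all). A difference between the ages is therefore not shown for any subunit at an adjusted p below 0.05, and the 2 tests share the arrays of 3 months.

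In WT mice, subunit levels were lower at 3 months than at 1 month for 16 of 17 probes, and 8 had a limma adjusted p below 0.05, all lower, which is 47.1% of the members against 43.7% of the 34607 probes tested, or 42.2% for lower levels alone. With the thresholds used for genotype there were 4 (8.89% of all). The shift was general, since 88.1% of all probes read lower at 3 months, with a median difference of -0.44. When the 75th percentile was taken over all spots of an array in place of those above background, the median of all probes was 0.01, 11 members were lower and 6 higher, and 1 of 17 members had an adjusted p below 0.05, against 12.8% of all probes. Values below are therefore also given minus the median of all probes.

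The probe that stayed was Grin3a A_55_P1980471. It read -1.75, -2.26, -1.65 and -1.69 in WT mice of 1 month. The WT arrays of 3 months read -3.81, -4.24, -4.34 and -4.11, and those of 12 months -2.98, -3.71 and -3.01. The fall from 1 to 3 months was -2.29 on the log2 scale (SE 0.21, limma adjusted p = 0.000179), or -1.85 minus the median of all probes, with -1.83 (limma adjusted p = 0.00335) under the percentile over all spots. All WT arrays of 3 months lay below all those of 1 and 12 months. From 3 to 12 months it rose by 0.89 (SE 0.22, limma adjusted p = 0.0237), and it was the only member of 17 (5.88%) with an adjusted p below 0.05 in that comparison, against 9.61% of 33687 probes. With the thresholds used for genotype there were 0 (4.49% of all). That call was lost without WT replicate 2, 3 or 4 of 3 months or WT replicate 1 or 3 of 12 months. Without WT replicate 3 of 12 months Grin2a A_55_P1974035 passed in its place, and without WT replicate 1 of 3 months Gria3 A_52_P179309 passed beside Grin3a.

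The second Grin3a probe, A_52_P531731, moved the same way and less, at 0.05, -0.42, -0.36 and -0.53 at 1 month and -1.21, -1.06, -1.41 and -1.36 at 3 months. Its difference was -0.94 (SE 0.19, limma adjusted p = 0.00327), or -0.50 minus the median of all probes. At 12 months it read -1.38, -1.01 and -0.53, a range that overlapped that of 3 months.

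Apart from Grin3a, 3 probes differed by more than 1 between WT mice of 1 and 3 months, those of Gria4 (A_52_P349182, -1.14), Grin2a (A_55_P1974035, -1.05) and Gria3 (A_52_P179309, -1.05). Minus the median of all probes these came to -0.70, -0.61 and -0.61. Under the percentile over all spots their adjusted p was 0.0509, 0.113 and 0.0606. Gria2 A_55_P2031327, Grin2a A_55_P1980481 and Grin2b A_51_P320357 also had an adjusted p below 0.05, with differences of -0.50, -0.63 and -0.48, which came to -0.06, -0.19 and -0.03 minus the median of all probes. The count of 8 fell to 5 without WT replicate 3 or replicate 4 of 3 months, where the share of all probes fell from 43.7% to 37.1% and 33.6%.

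The brightest probes of Gria1, Grin1 and Gria2 had no adjusted p below 0.05 between WT ages. From the youngest to the oldest age, Gria1 read 3.06, 2.48, 2.80 and 2.96, then 2.93, 2.67, 2.69 and 2.76, then 2.36, 2.73 and 2.05, with neighbouring ages overlapping. Grin1 A_65_P18935 read 1.70, 1.95, 1.16 and 1.80, then 1.56, 1.57, 0.95 and 1.62, then 1.12, 1.32 and 1.00, also overlapping. Gria2 A_65_P00930 had means of 0.69, 0.76 and 0.15 at the 3 ages (SD 0.32, 0.68 and 0.27). Grin2b A_51_P320357 was at 1.34, 0.86 and 0.85 (SD 0.27, 0.15 and 0.14), with the arrays of 1 and 3 months apart. In that comparison groups were apart for 8 of the 17 member probes (47.1%), against 40.8% of all probes. Grin2a A_55_P1980481 was at 1.19, 0.56 and 0.72 (SD 0.37, 0.48 and 0.17), and Grin2c at 1.52, 1.30 and 1.27 (SD 0.26, 0.25 and 0.06). Gria3 A_52_P68221 read between 1.16 and 1.64 at 1 month and between 0.97 and 1.12 at 3 months. Minus the median of all probes, the differences from 1 to 3 months were 0.38 (Gria1), 0.21 (Grin1) and 0.51 (Gria2). For the other probes of this paragraph they were -0.03 (Grin2b), -0.19 (Grin2a), 0.22 (Grin2c) and 0.17 (Gria3).

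**Figure D3:**
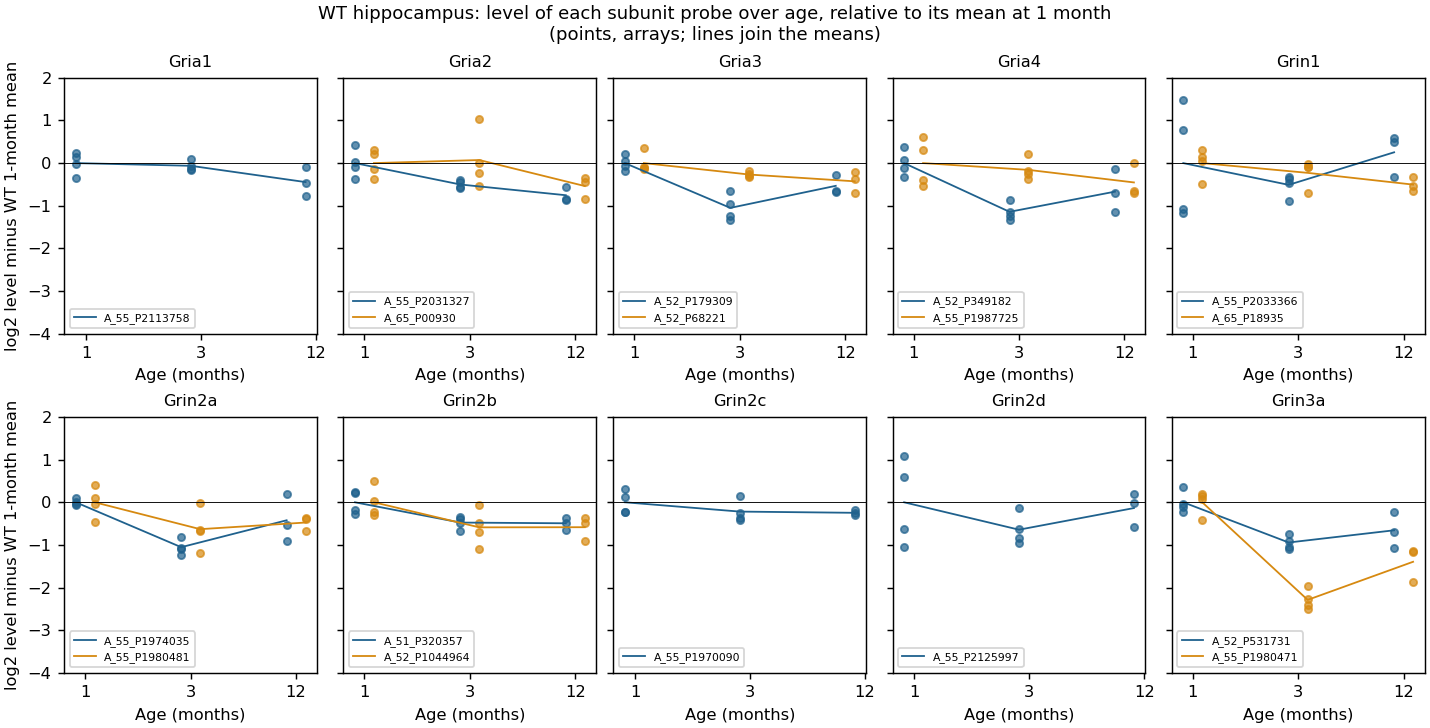
Log2 level of each subunit probe in WT mice at 1, 3 and 12 months minus its own mean at 1 month, 1 point per array with lines through the means, and 1 colour per probe. Grin3a probe A_55_P1980471 falls by 2.29 at 3 months and regains 0.89 by 12 months, and the means of most other probes stay within 1 log2 unit of their mean at 1 month.

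Other genes of glutamate signalling were read from 5 lists of 56 genes, 1 probe per gene, of which 55 were tested. At 1 month 0 were called (0.57% of all probes were), and at 12 months 0 were called (1.3% of all probes were). At an unadjusted p below 0.05, 2 of the 55 were higher and 0 lower at 1 month, against 3.47% of all probes in either direction, and 6 higher and 0 lower at 12 months, against 9.05%. The median Log2 FC over the 55 genes was 0.06 and 0.13 at these ages. At 3 months 1 gene was called, which is 1.82% of the 55 against 6.76% of all probes. This was Dao, D-amino acid oxidase, which breaks down the co-agonist D-serine, with a Log2 FC of -1.42 (SE 0.49, limma adjusted p = 0.101) and overlapping groups. The count was 2 with dim spots kept or the percentile over all spots and 0 with normexp background correction. Without WT replicate 3 of 3 months 0 were called, and without TgproNGF#3 replicate 2, 3 or 4 or WT replicate 2 it was 2 to 4 genes. At 3 months the median over these genes was -0.10, near the -0.12 of all probes.

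By role, the 14 auxiliary subunits of AMPA and kainate receptors held 4 higher and 2 lower genes at an unadjusted p below 0.05 at 3 months, where 7.48% of all probes were higher and 19.7% lower. The lower genes included Cacng8, the main hippocampal TARP that brings AMPA receptors to the synapse. It had a Log2 FC of -0.997 (limma adjusted p = 0.00316, groups apart), just short of the limit of -1. The 8 kainate and delta subunits, a list that also holds Grin3b, included Grik4 at -0.64 (limma adjusted p = 0.0465), and 2 others were higher and 0 others lower at an unadjusted p below 0.05. Among the 13 genes of glutamate transport and co-agonist supply, Slc7a10, the Asc-1 transporter of D-serine and glycine, was lower by a Log2 FC of -0.76 (limma adjusted p = 0.0356). Slc17a6, the vesicular transporter VGLUT2, was higher by 0.66 (limma adjusted p = 0.0455). These 4 of the 55 genes were chosen after their values were seen, for an adjusted p below 0.05, which 8.43% of all probes had. Of the 7 metabotropic receptors 2 were higher and 2 lower at an unadjusted p below 0.05, none with an adjusted p below 0.05, and of 13 partner genes such as Grip1, Pick1 and Nptx1 there were 0.

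**Figure D4:**
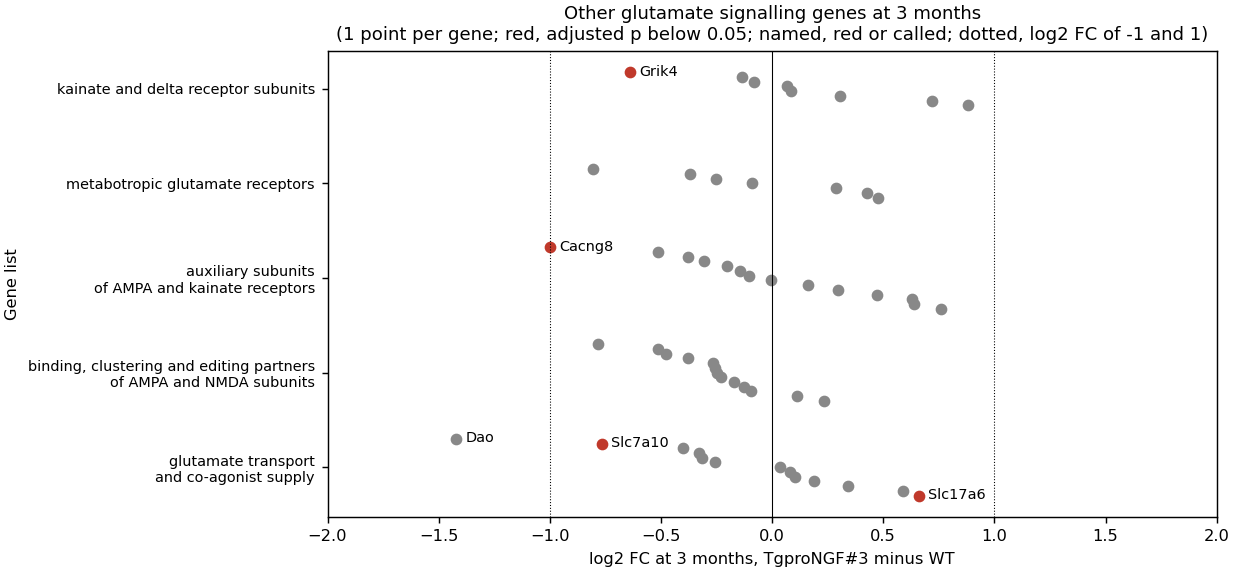
Log2 FC at 3 months of 55 glutamate signalling genes in 5 lists, 1 point per gene, red at a limma adjusted p below 0.05. Cacng8 (-0.997), Slc7a10 (-0.76) and Grik4 (-0.64) stand to the left and Slc17a6 (0.66) to the right, and Dao (-1.42) is the 1 called gene.

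The genes whose levels were most like those of Gria2 and Grin1 were read from the brightest probe of each, over deviations from the mean of all mice of the same age on the 22 arrays and 18917 probes. For Gria2 these were Slc25a30 (Pearson r = 0.84), Atp8a1 (0.84) and Hadh (0.83), and for Grin1 they were Arpc4 (0.93), Slc38a7 (0.92) and Ly6e (0.91). The points share arrays, slides and genotype differences, and these correlations are a description with no test.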

How the data were processed

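Hippocampal RNA of 22 mice was hybridized to 22 one-colour arrays of 62976 spots. Per the file headers and the methods of the study, the authors scanned the arrays and extracted background-subtracted signal intensity values with Agilent Feature Extraction (10.7.3.1). The authors also deposited a table of log2 values, aligned to the 75th percentile with dim features removed, which was used here only as an alternative.

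The deposited intensities were filtered by removing controls, spots flagged as outliers and spots below the detection flag of the software. Processed signals were put on the log2 scale, the 75th percentile of each array's remaining spots was subtracted, and replicate spots of a probe were averaged. A probe needed 2 or more values per group. Genotypes were compared separately for every age with limma 3.58.1 (R 4.3.3), and p-values were adjusted by Benjamini-Hochberg over all probes tested. Called means an unadjusted p below 0.05 and a Log2 FC above 1 or below -1. Interactions and comparisons of WT ages were called at an adjusted p below 0.05. The normexp alternative (offset 50) used median signals. Genes were named through RefSeq transcripts (GRCm38.p6 table), which gave a symbol to 28026 probes. Some of the limma fits, but not every statistical step, were tested on simulated data. The labels number the mice of each group, and nothing further says that they came from separate litters, so p-values measure the spread between these mice.

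Each of the 17 member probes has its Log2 FC at 3 months in the text. Values on every array are given for probes called at any age or with an adjusted p below 0.05 in a genotype comparison, and the brightest probe of each gene is also given. Other probes were named where both probes of a gene are compared. The members and the lists of other genes and markers were chosen with earlier results of these data known.

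Same-numbered TgproNGF#3 and WT arrays deviated together at 1 month (r = 0.511, 0.272, 0.191 and 0.208 over 36103 probes). They did not at 3 months (r from -0.356 to -0.0234) or 12 months (from -0.316 to 0.0503). The labels do not say that the numbers pair the mice, and correlations between arrays of different numbers were not computed. At 1 month same-numbered arrays also shared a row of the slide, so a pairing is not established. The alternatives changed the filters, scaling, background correction, samples in the fit, replicate block, array row, threshold and single arrays.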

Additional observations from a re-analysis of the deposited data

Results flagged for a closer look

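Single arrays stood far from the rest of their group, by the gap to the nearest array over the range of the group, in 5 of 68 groups of 4 arrays (7.35%). Chance alone flags about 1 in 20 groups (5%).

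Gria3 probe A_52_P68221 held 3 of the 5 values. TgproNGF#3 replicate 4 read 1.11 at 1 month, with the nearest array at 1.57, and TgproNGF#3 replicate 4 of 3 months read 0.0303, with the nearest at 0.93. WT replicate 1 read 1.64 at 1 month, with the nearest at 1.21. The Grin1 probe A_65_P18935 read 0.95 in WT replicate 3 of 3 months, with the nearest array at 1.56. The Grin3a probe A_55_P1980471 read -2.26 in WT replicate 2 of 1 month, with the nearest at -1.75.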

How the results depend on the processing

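At 3 months the same 3 probes were called under all 11 other settings of filter, scaling, background correction, fit and block, and 2 had an adjusted p below 0.05 in place of the study's thresholds. By adjusted p, Grin2a and Grin2b passed in 10 of the 11 settings each and were lost with the replicate block (0.0546 and 0.0649), and Gria2 A_65_P00930 passed in 3 of 11, down to 0.00363 with all 22 arrays in 1 fit. Leaving out single arrays gave 3 to 4 calls, the fourth being Grin2a A_55_P1980481 (without TgproNGF#3 replicate 2, -1.05, or 3, -1.15, or WT replicate 2, -1.11) or Grin3a A_55_P1980471 (1.07 without TgproNGF#3 replicate 4). Of all probes, 3.67% to 7% were called at 3 months over the other settings and 5.68% to 8.54% with 1 array left out. At 1 and 12 months 0 members were called under every setting and every array left out. Of all probes 0.133% to 0.952% were called there at 1 month and 0.517% to 3.06% at 12 months. Over the other settings, members at an unadjusted p below 0.05 numbered 0 to 3 at 1 month (2.05% to 5.64% of all probes), 5 to 8 at 3 months (20.8% to 30.7%) and 0 to 2 at 12 months (1.86% to 15.1%). With 1 array left out they numbered 0 to 2 (1.89% to 6.21%), 5 to 9 (19.7% to 30%) and 0 to 6 (4.18% to 17.4%). No called Log2 FC changed sign, and 20 of 561 values under other settings and 25 of 374 with 1 array left out were uncalled values that did.

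For the change of the genotype difference from 1 to 3 months, 0 members passed, against 1 with arrays aligned to the median, 1 with all 22 arrays in 1 fit, 3 with the study's thresholds, and 0 to 2 with 1 array left out. The share of all probes was 1.75%, against 1.31%, 2.74%, 5.74% and 1.1% to 2.85% in turn. From 3 to 12 months the count was 0, against 1 with all 22 arrays in 1 fit, 2 with the study's thresholds, and 0 with any array left out. Here the share of all probes was 4.01%, against 4.52%, 8.33% and 2.11% to 5.49%. For WT at 3 against 1 month, 8 members passed, against 10 with arrays aligned to the median, 7 with quantile normalization, 6 in 1 fit of 22 arrays, 2 with dim spots kept, 1 with the percentile over all spots, 4 with the authors' log2 values, 4 with the study's thresholds, and 5 to 8 with 1 array left out. The share of all probes moved too, from 43.7% to 58.2%, 55.9%, 43%, 20.1%, 12.8% and 15% under the first 6 of these settings in turn. For WT at 12 against 3 months, 1 passed, against 0 with dim spots kept, 0 aligned to the median, 0 with quantile normalization, 0 in 1 fit of 22 arrays, 0 with the study's thresholds, and 0 to 2 with 1 array left out. The share of all probes was 9.61%, against 6.6%, 2.95%, 4.14%, 7.14%, 4.49% and 4.5% to 8.64% in turn. The cause of these shifts was not tested.

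With the replicate block the counts were 0, 3 and 0 for genotype at 1, 3 and 12 months, 0 and 0 for the changes with age, and 9 and 1 for WT. The shares of all probes were 0.625%, 6.7% and 1.33% for genotype, 1.42% and 1.22% for the changes with age, and 40.4% and 6.88% for WT. The block changed no genotype call at the study's thresholds. The small number of arrays limits the precision.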
